A study of Mus musculus with 2 samples.

Results

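Inflammasomes are cytosolic protein complexes that sense infection or cell damage and activate inflammatory caspases. The 10 genes described here encode 6 sensors (Nlrp3, Nlrp1b, Nlrc4, Naip2, Naip5 and Aim2), the adaptor ASC (Pycard), 2 inflammatory caspases (Casp1 and Casp4) and gasdermin D (Gsdmd). They were chosen by name, as parts of this pathway, out of 19938 genes with a probe set naming that gene alone. The choice was made with earlier results of these data known. Each of the 10 had exactly 1 such probe set. In healing mouse skin, all 10 had higher values in the B-Gal positive than in the B-Gal negative cells, and 9 of them were at least 2-fold higher. The exception was Gsdmd, the gene of the pore-forming protein at the end of the pathway, at 1.38-fold.

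In an inflammasome, a sensor recognises its signal, assembles with others of its kind and, in most cases through ASC, recruits pro-caspase-1, which then cleaves itself. Active caspase-1 matures the precursors of interleukin-1 beta and interleukin-18 and cuts gasdermin D, whose amino-terminal part forms pores in the plasma membrane and can end in pyroptosis, a lytic cell death. Mouse caspase-4, widely called caspase-11, binds bacterial lipopolysaccharide in the cytosol and cuts gasdermin D directly. In skin wounds, macrophages are a known source of interleukin-1 beta.

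Cells labelled B-Gal positive and cells labelled B-Gal negative both came from healing skin scar tissue of mice labelled as TCF reporter mice, 1 week after wounding. B-Gal is read here as beta-galactosidase from a transgene responding to TCF factors, the nuclear partners of beta-catenin. The labels give neither the strain, age and sex of the mice nor their number, nor how cells were told apart, and the design text speaks of microdissected and homogenised wound tissue. Total RNA of each group was measured on 1 Affymetrix Mouse Gene 1.0 ST array, so no difference below has an error or a test, and the 2 arrays limit the precision. The comparison asked which genes the B-Gal positive cells express differently from the B-Gal negative ones. No reporter measurement was used to check these labels.

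Values are log2 expression values per probe set, and each difference is B-Gal positive minus B-Gal negative. Values of different genes come from different probes and are not compared as levels. As a floor served the 95th percentile of 1194 olfactory or vomeronasal receptor genes, both arrays together, 5.59 on the log2 scale, and a gene counts as expressed where at least 1 array is above it. All 10 inflammasome genes were expressed by this rule, and each exceeded the floor in the B-Gal positive sample. In B-Gal negative cells Nlrp1b and Nlrc4 lay under it, so their folds are lower bounds, computed against the floor.

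Among the 13784 expressed genes of all kinds, 9.92% were higher by 2-fold or more in B-Gal positive cells and 12.7% were lower by as much, against 9 and 0 of the 10 inflammasome genes. The median difference was 1.98 over the 10 genes and 0.06 over all expressed genes. At least 4-fold differences on the higher side were found for 5 of the 10 genes, all of them sensors, and for 3.01% of expressed genes. On the lower side such differences were found for 0 of the 10 and for 5.72% of expressed genes. Among the receptor genes used for the floor, 2.68% differed at least 2-fold in either direction, with a median difference of 0.28 and an SD of 0.37 over genes.

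**Figure D1:**
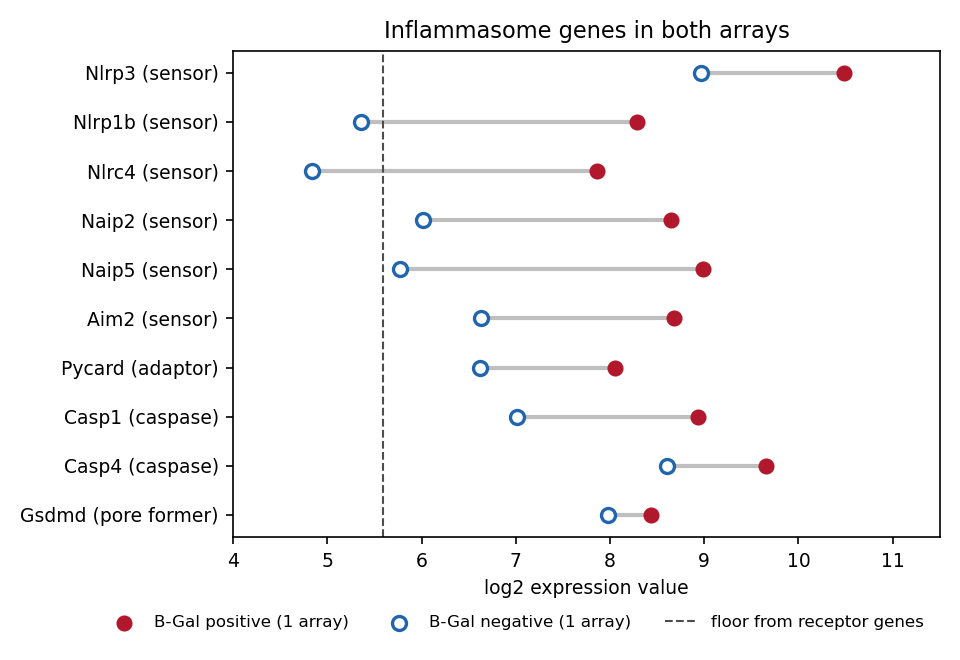
Log2 expression values of the 10 inflammasome genes (x axis) by gene and role (y axis), with B-Gal positive cells as filled red points and B-Gal negative cells as open blue points, 1 array each. Every red point lies right of its blue point, and the blue points of Nlrp1b and Nlrc4 lie left of the dashed floor at 5.59.

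The NAIP and NLRC4 sensors had some of the largest differences of the group. NAIP proteins bind bacterial flagellin or type III secretion proteins and then trigger NLRC4, which recruits caspase-1. Naip5, whose protein recognises flagellin in mice, had a log2 value of 8.98 in B-Gal positive cells and 5.77 in B-Gal negative cells. That is a 9.28-fold higher value, rank 89 from the top among expressed genes. Naip2, whose protein recognises the rod protein of type III secretion systems in mice, had 8.64 in B-Gal positive cells and 6.02 in B-Gal negative cells, a 6.17-fold difference. Nlrc4 had 7.86 in B-Gal positive cells and 4.84 in B-Gal negative cells. With the second value under the floor, Nlrc4 was at least 4.83-fold higher. Naip5 and Naip2 in B-Gal negative cells lay only a little above the floor, so for all 3 genes the signal there was at or near the floor.

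Naip2 and Naip5 stand next to each other in the mouse genome, and their start regions resemble each other. The 300-base windows that RefSeq gives for both (assembly GRCm38.p6, 250 bases before to 50 after the annotated start, both on the minus strand) are shown here because these copies differed together. Capitals mark the runs of at least 12 bases that the windows of Naip2 (chr13:100202073-100202372) and Naip5 (chr13:100247287-100247586) share exactly.
Naip2: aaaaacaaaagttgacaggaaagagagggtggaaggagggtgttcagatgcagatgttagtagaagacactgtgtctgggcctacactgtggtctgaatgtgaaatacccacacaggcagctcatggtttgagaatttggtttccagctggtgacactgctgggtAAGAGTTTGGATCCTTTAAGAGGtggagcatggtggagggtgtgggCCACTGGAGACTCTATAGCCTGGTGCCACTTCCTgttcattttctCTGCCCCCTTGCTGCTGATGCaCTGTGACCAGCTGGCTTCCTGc
Naip5: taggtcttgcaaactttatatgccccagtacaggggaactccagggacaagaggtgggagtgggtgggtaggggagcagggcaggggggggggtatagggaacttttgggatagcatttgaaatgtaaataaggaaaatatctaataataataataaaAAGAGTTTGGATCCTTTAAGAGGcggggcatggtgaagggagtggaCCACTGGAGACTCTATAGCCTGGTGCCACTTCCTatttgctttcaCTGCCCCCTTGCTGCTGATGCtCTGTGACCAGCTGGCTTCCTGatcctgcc
Those runs cover 99 bases of each window, and the longest is 34 bases. Over the other 62 pairs of windows of different inflammasome genes, the longest shared run was 10 bases. NAIP genes are close copies, so a probe designed on one may also bind RNA of another. How far this holds for these probe sets was not tested.

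Nlrp1b and Aim2 were also at least 4-fold higher. NLRP1B is a sensor that is activated when proteases, such as anthrax lethal factor, cut it. Its gene had a log2 value of 8.29 in B-Gal positive cells and 5.36 in B-Gal negative cells. Against the floor it was at least 6.49-fold higher. Aim2, the gene of a sensor of double-stranded DNA in the cytosol, had 8.68 in B-Gal positive cells and 6.63 in B-Gal negative cells, a 4.12-fold difference with both arrays above the floor. Its log2 difference was 1.75 with an offset added to the linear values and 1.99 after the loess correction, both under the 4-fold threshold.

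Nlrp3 had the smallest difference of the 6 sensors. NLRP3 responds to many signs of cell stress, among them potassium loss from the cell, and its gene is known to be induced through NF-kappaB. The log2 value was 10.48 in B-Gal positive cells and 8.97 in B-Gal negative cells, a 2.85-fold difference. Both values lay far above the floor. Over the 6 sensors the median difference was 2.78, and 2.45 with the values under the floor raised to it.

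Pycard, the gene of the adaptor ASC, which joins the pyrin domains of sensors to the caspase recruitment domain of caspase-1, had a log2 value of 8.05 in B-Gal positive cells and 6.62 in B-Gal negative cells. This was a 2.70-fold difference. Casp1 had 8.94 in B-Gal positive cells and 7.02 in B-Gal negative cells, a 3.78-fold difference and the larger of the caspase differences. Casp4 had 9.66 in B-Gal positive cells and 8.60 in B-Gal negative cells, a 2.08-fold difference that lies just over the 2-fold threshold. It lay just under that threshold after a loess correction (0.98 on the log2 scale), after quantile normalization (0.99) and with an offset added to the linear values (0.999).

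Gsdmd had a log2 value of 8.44 in B-Gal positive cells and 7.98 in B-Gal negative cells, a difference of 0.46. Of expressed genes, 23.9% had a higher difference than Gsdmd, while the other 9 genes all ranked within the top 10%, with Casp4 the lowest of them at 9.29%. By role, the differences of the 10 genes were 1.51 to 3.21 for the sensors, 1.43 for the adaptor, 1.06 and 1.92 for the caspases and 0.46 for the pore former. These are ranges over 10 probe sets on 2 arrays, and differences between roles were not tested.

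**Figure D2:**
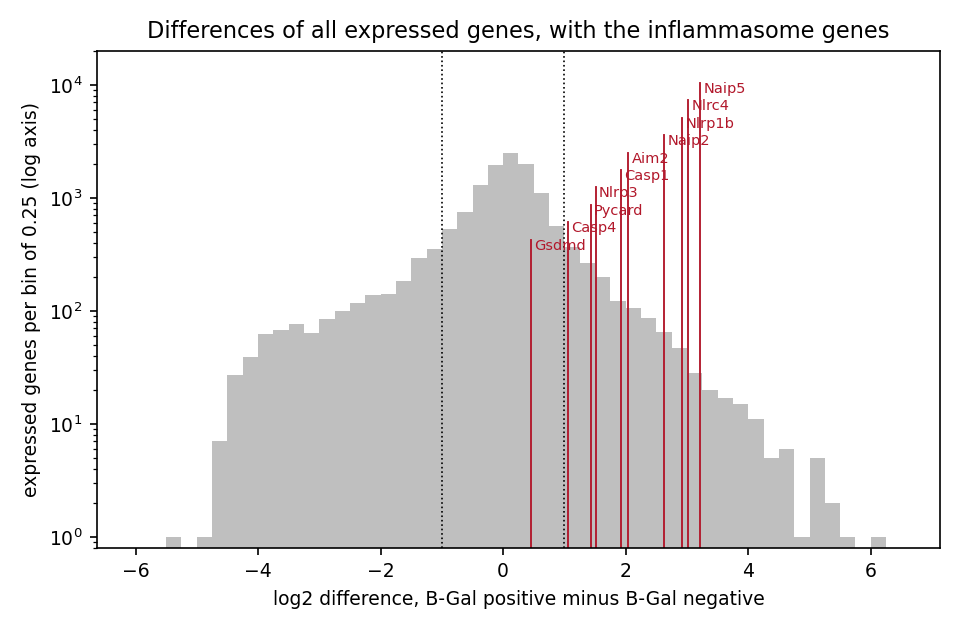
Number of expressed genes (y axis, log scale) by log2 difference, B-Gal positive minus B-Gal negative (x axis, bins of 0.25), with each inflammasome gene as a red line and 2-fold thresholds as dotted lines. The red lines run from 0.46 for Gsdmd to 3.21 for Naip5, and 9 of 10 lie right of the upper threshold.

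Marker genes of cell types differed strongly between the same arrays. Of 14 macrophage markers, 13 could be measured by a single-gene probe set, and all 13 passed 2-fold on the higher side in B-Gal positive cells (median difference 3.52). Their linear values summed to 58529 in B-Gal positive cells and 5305 in B-Gal negative cells, and Cd163 did not exceed the floor in B-Gal negative cells. All 6 pan-leukocyte markers passed 2-fold on that side as well (median difference 2.93), with linear sums of 18507 in B-Gal positive cells and 2933 in B-Gal negative cells. All 9 fibroblast markers were at least 2-fold lower, with sums of 14505 in B-Gal positive cells and 76857 in B-Gal negative cells.

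The 8 inflammasome genes above the floor on both arrays all had differences under the macrophage median, and 1 of the 8, Naip5, had a difference over the pan-leukocyte median. Macrophage markers ran from 2.09 to 6.24 and pan-leukocyte markers from 1.82 to 3.89. Naip2 and Naip5 lay within both ranges, and Aim2 and Casp1 within the pan-leukocyte range. Nlrp3, Pycard, Casp4 and Gsdmd lay below both. In such bulk samples, more cells of a type and more RNA per cell cannot be told apart. The part of macrophage number in the values of the inflammasome genes was not tested. Of 8 expressed neutrophil markers, 1 was higher and 4 were lower by 2-fold or more, and the higher one, Mmp8, was at least 1.56-fold higher against the floor. The 4 lower ones were S100a9 (10.6-fold), S100a8 (6.54-fold), Cxcr2 (at least 4.71-fold) and Retnlg (at least 2.53-fold). Csf3r, Mmp9 and Camp differed by less than 2-fold, with higher values in B-Gal positive cells. Linear sums over the 10 on the array were 1458 in B-Gal positive cells and 2200 in B-Gal negative cells. Such sums rest mostly on the brightest probe sets. Ly6g and Ngp lay under the floor on both arrays. All 7 expressed mast cell markers and 3 of 5 expressed T and NK cell markers were at least 2-fold lower. Likewise 5 of 6 endothelial markers and 2 of 6 expressed keratinocyte markers were lower. Of 6 expressed dendritic cell markers, 1 was higher and 0 lower, the higher one being the integrin gene Itgax, which macrophages also express.

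The wider pathway was read from 6 lists of genes that act before, beside or after the 10. Of their 84 genes, 71 had a single-gene probe set, and 68 of those were expressed. In B-Gal positive cells 22 (32.4%) were higher by 2-fold or more, against 9.92% of all expressed genes. By as much 8 were lower, close to the 12.7% of all expressed genes. Against the floor 20 were higher and 7 lower, beside 9.55% and 11.6% of all expressed genes with values raised to it. By list, the share higher ran from 14.3% for interferon-linked genes to 40% for substrates and receptors. The lists are small, with 7 to 16 expressed genes each. The median difference of these 68 was 0.51.

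Among other cytosolic sensors, 6 of 16 expressed genes were at least 2-fold higher and 1 lower. Naip6, the third of the neighbouring NAIP genes with a single-gene probe set, was at least 5.55-fold higher. Ifih1, which encodes the double-stranded RNA sensor MDA5, was 5.22-fold higher, and Mefv, which encodes the sensor pyrin, was 4.21-fold higher. Nod2, a sensor of bacterial cell wall fragments, was 2.90-fold higher, with a value in B-Gal negative cells, 5.97, only a little above the floor. Nlrp1a and Nlrp10 were counted on the deposited values, but neither exceeded the floor in B-Gal negative cells, and against it they were at least 1.43-fold and 1.22-fold higher. Nod1, which encodes the other cell wall sensor of that pair, had log2 values of 7.98 in B-Gal positive cells and 7.89 in B-Gal negative cells. The 1 lower gene was Ifi205, from the DNA-sensor family of Aim2, at 4.47-fold. Nlrp2 lay under the floor, with 3.57 on both arrays.

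Signals that prime inflammasomes come through Toll-like receptors and NF-kappaB. Of 11 such genes, 4 were at least 2-fold higher and 0 lower. The receptor gene Tlr2 was 6.07-fold higher, the lipopolysaccharide co-receptor gene Cd14, also in the macrophage list, 4.25-fold, Tlr4 2.67-fold, and Tnfaip3, an inhibitor of NF-kappaB, 2.03-fold. The shared adaptor gene Myd88 differed by -0.03 and the NF-kappaB subunit gene Rela by 0.21 on the log2 scale.

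Among triggers and regulators, 5 of 15 genes were at least 2-fold higher and 2 lower. The scavenger receptor gene Cd36, which can carry crystals and lipids into cells, was 13.8-fold higher, and P2rx7, the ATP-gated channel that lets potassium leave the cell, was 5.64-fold higher. Ctsb, a lysosomal cathepsin gene, was 2.49-fold higher, Trim30a, a negative regulator of NLRP3 in mice, 2.18-fold, and Bcl2l1, an anti-apoptotic gene, 2.15-fold. Serpinb1a, an inhibitor of neutrophil proteases that also restrains inflammatory caspases, was 6.76-fold lower. The channel gene Panx1 was 2.05-fold lower. Nek7, a kinase that NLRP3 needs, had log2 values of 9.93 in B-Gal positive cells and 9.44 in B-Gal negative cells.

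Genes that link interferon to inflammasomes differed little beside Irf8. Of 7 expressed genes, 1 was at least 2-fold higher and 0 lower. Irf8, a transcription factor of myeloid cells that drives NAIP genes in mouse macrophages, was 3.68-fold higher, with log2 values of 9.60 in B-Gal positive cells and 7.72 in B-Gal negative cells. Guanylate-binding protein genes, which act on bacteria and their vacuoles in the cytosol, had smaller differences: 0.66 for Gbp5, 0.40 for Gbp7 and -0.19 for Gbp3. Ifnar1, a chain of the type I interferon receptor, differed by 0.51.

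Among other caspases and death effectors, 2 of 9 expressed genes were at least 2-fold higher and 1 was lower. Ninj1, whose protein ruptures the plasma membrane after pores have formed, was 6.17-fold higher, with log2 values of 11.15 in B-Gal positive cells and 8.52 in B-Gal negative cells. Casp8, the initiator caspase of death receptors, was 2.09-fold higher. Casp9, the initiator caspase of the mitochondrial route, differed by 0.67. The necroptosis genes Ripk3 and Mlkl differed by -0.51 and -0.48, and Gsdme, another gasdermin gene, by 0.18. Casp12, the neighbour of Casp4, had 4.75 in B-Gal positive cells and 8.15 in B-Gal negative cells, and was at least 5.91-fold lower.

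The substrates and their receptors differed in both directions, 4 of 10 at least 2-fold higher and 4 lower. Il18, a caspase-1 substrate, was 2.03-fold higher, its binding protein gene Il18bp 2.22-fold, the receptor antagonist gene Il1rn 2.13-fold and Il1a 3.19-fold. The Il18 value in B-Gal negative cells, 5.90, lay only a little above the floor, and its fold lies just over the 2-fold threshold. Il1b, the main substrate, had log2 values of 12.24 in B-Gal positive cells and 11.71 in B-Gal negative cells, a 1.45-fold difference. On the lower side were the alarmin gene Il33 (15.4-fold), the decoy receptor gene Il1r2 (2.60-fold), the receptor chain gene Il18rap (2.72-fold) and Il18r1, which was at least 1.23-fold lower against the floor. All the ligand, antagonist and binding protein genes except Il33 thus had higher values, and all 4 receptor genes measured had lower values, Il1rap among them at -0.89. The receptor gene Il1r1 had no single-gene probe set and was not measured.

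**Figure D3:**
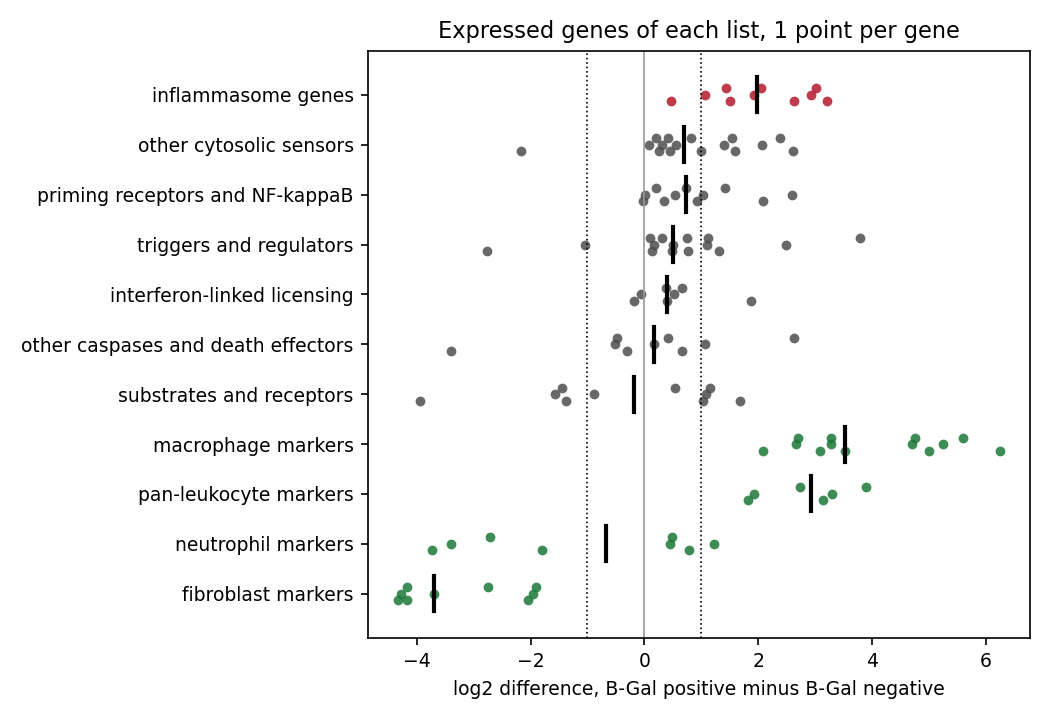
Log2 difference, B-Gal positive minus B-Gal negative (x axis), of each expressed gene in the inflammasome genes (red), 6 lists of the wider pathway (grey) and 4 marker lists (green), with medians as black bars and 2-fold thresholds as dotted lines. The inflammasome median of 1.98 lies between those of the pathway lists and the macrophage median of 3.52.

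Several of the 10 genes stand in clusters of related genes, and the differences of their neighbours are given as a further description, added after the values were seen. Within 3 genes on either side, counting genes with a single-gene probe set, 48 neighbours were found and 35 were expressed. Of these, 8 (22.9%) were higher and 6 (17.1%) lower by 2-fold or more, against 9.92% and 12.7% of all expressed genes, around a median difference of 0.02. Of the 8 higher ones, Naip6, Nlrp1a, Nlrp1c-ps, Ifi206 and Ifi213 are family relatives of the 10 genes. Itgam and Itgax are on the marker lists above, and the last is 6330403K07Rik. The 22.9% is thus not a share of unrelated neighbours. Measured against the floor, 5 neighbours were higher and 4 lower by 2-fold or more. With values raised to the floor, 9.55% of all expressed genes were higher and 11.6% lower by as much. On one side of the NAIP cluster, Smn1 differed by -0.20 and Serf1 by -1.34, and on the other side Ocln and Marveld2 were not expressed. Beside Nlrp1b, the related pseudogene Nlrp1c-ps was 8.49-fold higher, with a value in B-Gal negative cells, 5.77, only a little above the floor. How far the probe sets of Nlrp1b and Nlrp1c-ps share RNA was not tested. Next to Aim2, the family genes Ifi206 and Ifi213 were at least 2.71-fold and 1.86-fold higher against the floor, while Cadm3 on the other side, an adhesion gene, was 2.79-fold lower.

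The caspase cluster was split. Casp1 and Casp4 were higher, and beyond them Casp12 and the growth factor gene Pdgfd were lower, with Pdgfd at 4.86 in B-Gal positive cells and 8.39 in B-Gal negative cells. Near Pycard stand Itgam and Itgax, integrin genes of myeloid cells, which were 6.52-fold and 4.75-fold higher. The neighbours of Nlrc4, Gsdmd and Nlrp3 had no gene at least 2-fold higher, and 1 gene beside Nlrp3, Zfp867, was counted as lower on the deposited values, at least 1.03-fold against the floor.

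**Figure D4:**
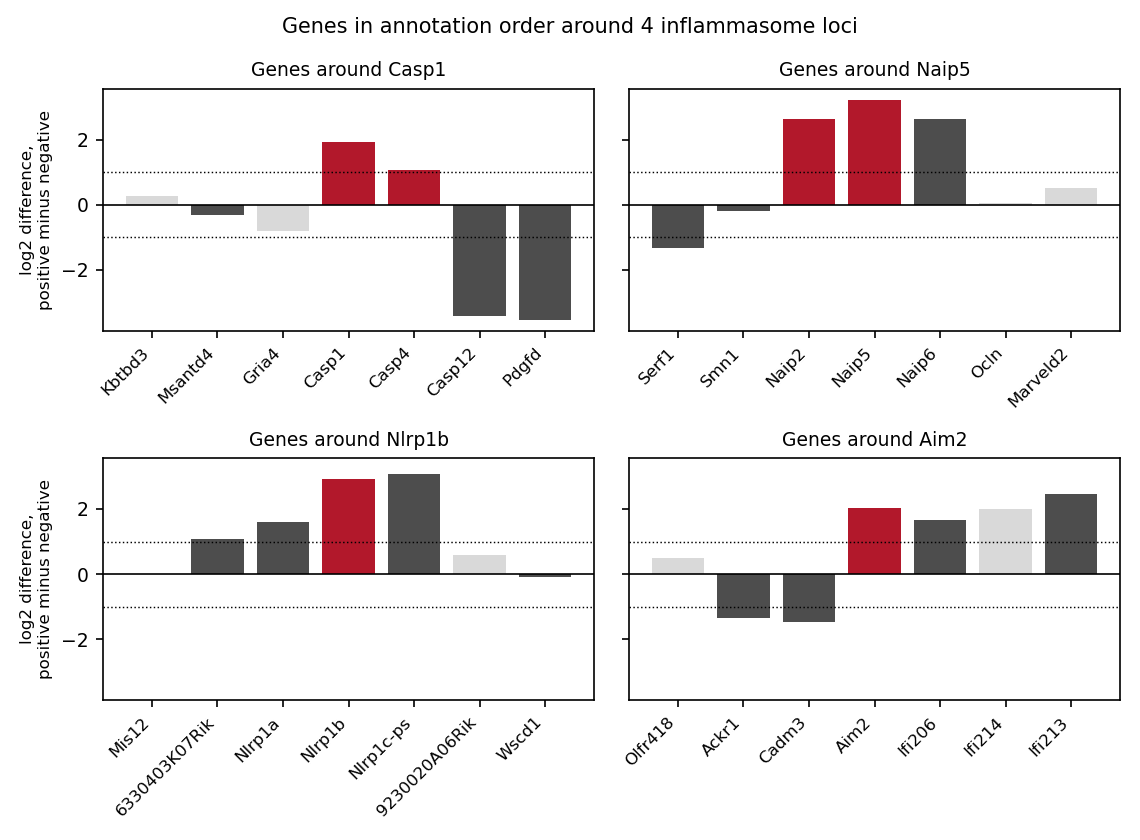
Log2 difference, B-Gal positive minus B-Gal negative (y axis), of genes in annotation order around Casp1, Naip5, Nlrp1b and Aim2, with inflammasome genes in red, other expressed genes in dark grey and genes not counted as expressed in light grey. In the caspase panel, Casp1 (1.92) and Casp4 (1.06) stand beside Casp12 (-3.40).

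RefSeq start windows were found for 9 of the 10 genes, 12 windows in all. They were searched on both strands for 6 short motifs, and each count is a description of letters, not of bound sites. The core of PU.1, a myeloid transcription factor, searched as GAGGAA, was in 5 of the 12 windows and in 28.3% of all 32851 windows. An NF-kappaB pattern, searched as GGNNTTNCC, was in 5 of 12 and in 16.0% of all. Of those 5 windows, 2 belong to Casp4 and overlap almost fully, and 2 belong to Nlrp3. An interferon response pattern, GAAANNGAA, was in 1 of 12, at Naip2, and in 8.56% of all. A STAT pattern, TTCNNNGAA, an AP-1 pattern, TGANTCA, and a TCF pattern, CTTTGAT, were in 0 of 12, against 8.30%, 7.81% and 3.73% of all windows.

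Of the 12 windows, 2 held none of the motifs, that of Nlrc4 and 1 of those of Nlrp1b. Windows of 4 genes are shown as examples of the PU.1 and NF-kappaB matches, at sensors and at both caspases, with capitals marking the matches. PU.1 matches also lie in windows of Nlrp1b and Pycard, and an NF-kappaB match lies in that of Naip5. The Naip2 window holds the interferon response match only. In the Naip2 and Naip5 windows shown above, capitals mark shared runs and not these matches. The windows shown here lie at chr11:59542436-59542735 for Nlrp3, at chr1:173420354-173420653 for Aim2, at chr9:5298267-5298566 for Casp1 and at chr9:5308599-5308898 for Casp4, all on the plus strand of GRCm38.p6.
Nlrp3: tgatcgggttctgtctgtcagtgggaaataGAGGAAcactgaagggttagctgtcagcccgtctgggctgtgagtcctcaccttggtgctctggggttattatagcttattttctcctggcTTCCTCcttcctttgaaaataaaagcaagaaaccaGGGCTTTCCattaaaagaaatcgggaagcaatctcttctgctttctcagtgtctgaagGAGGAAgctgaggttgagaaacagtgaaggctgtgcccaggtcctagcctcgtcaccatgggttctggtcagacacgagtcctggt
Aim2: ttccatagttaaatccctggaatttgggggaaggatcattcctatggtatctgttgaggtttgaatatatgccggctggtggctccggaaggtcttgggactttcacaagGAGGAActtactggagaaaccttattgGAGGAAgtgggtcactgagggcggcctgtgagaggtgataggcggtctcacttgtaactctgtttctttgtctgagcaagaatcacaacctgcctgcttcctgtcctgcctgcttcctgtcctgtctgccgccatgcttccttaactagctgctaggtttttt
Casp1: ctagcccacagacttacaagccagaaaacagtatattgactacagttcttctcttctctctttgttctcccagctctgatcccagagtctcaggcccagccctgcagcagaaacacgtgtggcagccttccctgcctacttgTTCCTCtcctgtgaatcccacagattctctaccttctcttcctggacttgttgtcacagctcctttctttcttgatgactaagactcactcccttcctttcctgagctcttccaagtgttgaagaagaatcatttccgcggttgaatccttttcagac
Casp4: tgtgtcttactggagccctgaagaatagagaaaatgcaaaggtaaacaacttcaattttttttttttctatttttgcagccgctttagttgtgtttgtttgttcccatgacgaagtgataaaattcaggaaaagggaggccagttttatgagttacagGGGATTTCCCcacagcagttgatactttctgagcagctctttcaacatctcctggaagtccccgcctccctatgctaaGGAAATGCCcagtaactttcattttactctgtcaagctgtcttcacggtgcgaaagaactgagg
The Nlrp3 window holds 3 PU.1 cores and 1 NF-kappaB match, the Aim2 window 2 PU.1 cores and the Casp1 window 1 on the opposite strand. The Casp4 window holds 2 overlapping NF-kappaB matches and a separate match nearer the start.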

How the data were processed

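RNA of B-Gal positive cells and of B-Gal negative cells was each put on 1 Affymetrix Mouse Gene 1.0 ST array, per the labels and design text. The deposited table of the authors holds 28853 probe sets, used here as log2 values. The log2 scale was inferred from their range of 1.16 to 14.8, and folds depend on it. Partek was the software, per the submitters' processing notes. No source used here gives its steps, the normalization or the log base. Array medians were 6.16 (B-Gal positive) and 6.18 (B-Gal negative), and no scaling was added.

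The platform annotation paired 21789 probe sets with 1 gene, 1621 with several and 5443 with none. Where a gene had several probe sets, the brightest on average represented it. Gene IDs of 21698 probe sets matched a RefSeq table of GRCm38.p6, used for names and gene order. Each group has 1 array, so no p-value was computed. Genes past 2-fold were counted among expressed genes with Python 3.11.15 and pandas 2.3.3. The counting was tested on simulated data.

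All 10 inflammasome genes are named, and of each pathway list at least the 4 expressed genes with the largest absolute differences. The members and lists were chosen with earlier results of these data known. With 2 arrays a gene has a single difference, so likeness of pattern has no measure. Protein sequences were not used here.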

Additional observations from a re-analysis of the deposited data

How the results depend on the processing

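Of the 10 alternatives, 5 can change the difference of a single gene, and all 50 differences under them were higher in B-Gal positive cells. Each gene has 1 probe set, so the mean over probe sets changed none. Differences that moved by more than 0.37, the SD over receptor genes, a yardstick and no replicate error, were Nlrp1b (2.23), Nlrc4 (2.12), Naip2 (2.16) and Naip5 (2.64) with an offset of 32 on the linear scale, and Nlrc4 (2.27) with values raised to the floor. Under a 4-fold threshold, 5 inflammasome genes were higher and 0 lower, and 8 wider pathway genes were higher and 4 lower. Of all expressed genes, 3.01% were higher and 5.72% lower by 4-fold. At 1.5-fold, 9 inflammasome genes were higher, against 18.8% of all expressed genes. The count at 2-fold was 8 after loess, quantile normalization or the offset, each without Casp4. The shares of all expressed genes higher by 2-fold were then 9.09%, 9.86% and 8.18%. The median of the 10 genes was lowest with the offset, at 1.72. Loess moved the median of all expressed genes to -0.04, against 0.06 in the deposited values. Signal near the floor limits Nlrp1b, Nlrc4, Naip2 and Naip5 in B-Gal negative cells. No paired analysis was possible because each group has 1 array.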

Other observations

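Whole gene families, taken by symbol after the values were seen, add genes outside the lists above. Of 29 NLR and NAIP genes with a probe set of their own, 16 were expressed, and in B-Gal positive cells 10 of these were higher by 2-fold or more and 0 lower. Against the floor 8 were, without Nlrp1a and Nlrp10. The 13 outside the 10 genes and the lists include Nlrp4, Nlrp5, Nlrp9 and Nlrp14 genes, several of which are known from oocytes, and 12 of the 13 were not counted as expressed on either array. The remaining one was Nlrp1c-ps. Of 9 gasdermin genes, 3 were expressed and 0 differed at least 2-fold in either direction. Of 8 caspase genes, 7 were expressed, with 3 at least 2-fold higher and 1 lower. Among all expressed genes, 9.92% were higher and 12.7% lower by as much.

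In the DNA-sensor family of Aim2, 7 of 10 genes were expressed, 5 of them at least 2-fold higher and 1, Ifi205, lower. Against the floor, 4 were at least 2-fold higher. Ifi209 had log2 values of 9.31 in B-Gal positive cells and 6.38 in B-Gal negative cells, and Ifi207 had 12.11 in B-Gal positive cells and 10.44 in B-Gal negative cells. A probe set naming both Ifi211 and Ifi204 had 10.41 in B-Gal positive cells and 10.22 in B-Gal negative cells. Probe sets naming 2 genes also gave 8.35 in B-Gal positive cells and 8.91 in B-Gal negative cells for Gbp2 with Gbp2b, and 7.77 in B-Gal positive cells and 7.87 in B-Gal negative cells for Irgm2 with Igtp. Genes of this family are close copies of each other, and how far their probe sets share RNA was not tested.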
